A study of Mus musculus with 12 samples.

Results

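The genes that make cholesterol and fatty acids, and those that control, carry or remove cholesterol, were followed in the brains of Shank2-mutant and wild-type (WT) mice given memantine or vehicle early in life. The set was a list of 40 named genes of 19312 in the deposited table: 18 enzymes of sterol synthesis, 6 genes of the sterol-sensing control system, 8 of fatty acid synthesis and 8 of cholesterol transport and turnover. Every gene of the list was in the table, and all 40 passed the filter on low values in every comparison. RNA was measured by sequencing in 12 male C57BL/6N mice at postnatal day 25, with 3 mice in each of 4 groups. The WT-Veh and WT-Mem groups were wild-type mice, and the KO-Veh and KO-Mem groups carried the homozygous deletion of exons 6 + 7 of Shank2, a scaffold protein of excitatory synapses, with no restriction to a cell type. Memantine, an antagonist of NMDA-type glutamate receptors, was given by mouth at 20 mg/kg in 2 doses a day from postnatal day 7 to 21, in 0.1% saccharin, and the Veh groups received 0.1% saccharin alone. All 4 groups therefore shared the stated dosing schedule, and each had 4 days without drug before collection. Each value comes from 1 unpooled brain, but the litter of each mouse is not given in the labels, so the tests measure the spread between these 12 mice.

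Brain cholesterol is made within the brain, because lipoproteins of the blood do not cross into it, and the demand is highest while myelin is laid down in the first postnatal weeks. Synthesis starts from acetyl-CoA, runs through mevalonate and squalene to lanosterol, and ends with the trimming of lanosterol to cholesterol. The genes for these steps are switched on together by SREBP2, the product of Srebf2. When sterols are low, the escort protein Scap carries the SREBP precursors from the endoplasmic reticulum to the Golgi for cleavage, and when sterols are high the Insig proteins hold them back. SREBP1, from Srebf1, mainly drives fatty acid genes, and Srebf1 is itself a target of the liver X receptors, which sense oxysterols and also switch on the cholesterol exporters Abca1 and Abcg1.

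Shank2 itself was checked against the labels. Its deposited values, which are estimated read counts that the authors scaled between mice, were 7427 to 8325 across WT-Veh and 7156 to 8548 across WT-Mem, then 2723 to 3053 across KO-Veh and 2706 to 3178 across KO-Mem, so every KO mouse lay below every WT mouse. The labels give whole brain as the tissue, whereas the methods describe the forebrain with the cerebellum removed. The 4 cerebellar markers (Gabra6, Cbln3, Pcp2 and En2) summed to 1558 in KO-Veh replicate 3, to 162 in WT-Veh replicate 3 and to 51.8 to 124 in the other 10 mice. KO-Veh replicate 3 thus stood apart in tissue content, and the main counts of each comparison that holds it are also given without it. The deposited values of the mice summed to between 30373849 and 31199251 because they were scaled, so these sums are not depths, and the number of reads behind each value is unknown. None of the 40 genes was listed at 0 in any mouse; the lowest single value was 255.9, for Lcat in KO-Mem replicate 1.

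Promoter sequences were examined because the sterol enzymes are known to share a control region in which SREBP acts beside the factor NF-Y. RefSeq promoters on GRCm38.p6, covering 250 bases before to 50 after each start, were matched by symbol for 15 of the 18 sterol enzymes. The NF-Y box CCAAT, searched on both strands, was in 14 of those 15 (93.3%), compared with 42.3% of the 12527 tested genes that had a promoter in the table. The Sp1 box GGGCGG was also in 14 of 15 (93.3%), compared with 65.1% of tested genes. The E-box CACGTG was in 3 of 15 (20.0%) against 11.0%. The strict SREBP element TCACNCCAC was in 1 of 15, Hmgcs1, where it starts at position -137, and in 1.4% of tested genes. Over the whole list 31 of 40 genes were matched, with 5 of 8 fatty acid genes and 6 of 8 transport genes, which is under 80%, so no share is given for them. The following windows, 5′ to 3′ on the gene's strand and upstream of any annotated exon, show these boxes in 3 enzymes whose RNA fell in KO mice (Hmgcs1, Mvd and Sc5d) and in 2 whose difference did not pass the test (Mvk and Lss); capitals mark CCAAT on either strand (ATTGG on the reverse) and, in Hmgcs1, the SREBP element.
Hmgcs1, chr13:119690126-119690325, + strand: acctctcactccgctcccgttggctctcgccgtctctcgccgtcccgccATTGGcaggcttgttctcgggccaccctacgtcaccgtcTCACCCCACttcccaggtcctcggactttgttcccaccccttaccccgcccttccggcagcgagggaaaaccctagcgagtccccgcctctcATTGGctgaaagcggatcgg
Mvd, chr8:122443430-122443497, - strand: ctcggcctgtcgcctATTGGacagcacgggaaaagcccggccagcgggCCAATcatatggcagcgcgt
Sc5d, chr9:42264305-42264339, - strand: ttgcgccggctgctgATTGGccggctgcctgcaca
Mvk, chr5:114444081-114444268, + strand: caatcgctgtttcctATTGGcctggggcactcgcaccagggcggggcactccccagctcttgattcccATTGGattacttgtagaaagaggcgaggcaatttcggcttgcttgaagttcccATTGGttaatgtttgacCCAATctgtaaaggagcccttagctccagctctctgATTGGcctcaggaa
Lss, chr10:76531528-76531562, + strand: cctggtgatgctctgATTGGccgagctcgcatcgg
These windows were chosen for holding an NF-Y box, so they say nothing of how often it occurs. Among the 15 matched enzymes the one without it was Acat2. Acat2 was not called in the genotype difference, and neither were Mvk, Pmvk, Lss, Tm7sf2, Hsd17b7 and Ebp, which hold the box. A relation between the box and the differences was not tested.

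The abundance of the genes was compared per kilobase of annotated exon, as a level over the 12 mice. Apoe, the main apolipoprotein of the brain, was the most abundant at 17698 per kb, followed by the stearoyl-CoA desaturase Scd2 at 7688, the neuronal cholesterol 24-hydroxylase Cyp46a1 at 2391 and Hmgcs1, which makes HMG-CoA, at 1987. Fads2, Fasn, Acly, Fads1 and Srebf2 followed, at 1776 to 1050 per kb. Soat1, which esterifies cholesterol for storage, was the least abundant at 90.6 per kb. Several genes share exon bases with a neighbour, and reads from these bases could be assigned to either gene: Fdps shares 26.7% of its exon bases with Gm43738, Fdft1 18.3% with Ctsb on the opposite strand, Scap 13.2%, Hmgcs1 12.1%, Tm7sf2 12.1% and Idi1 9.22%.

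**Figure D1:**
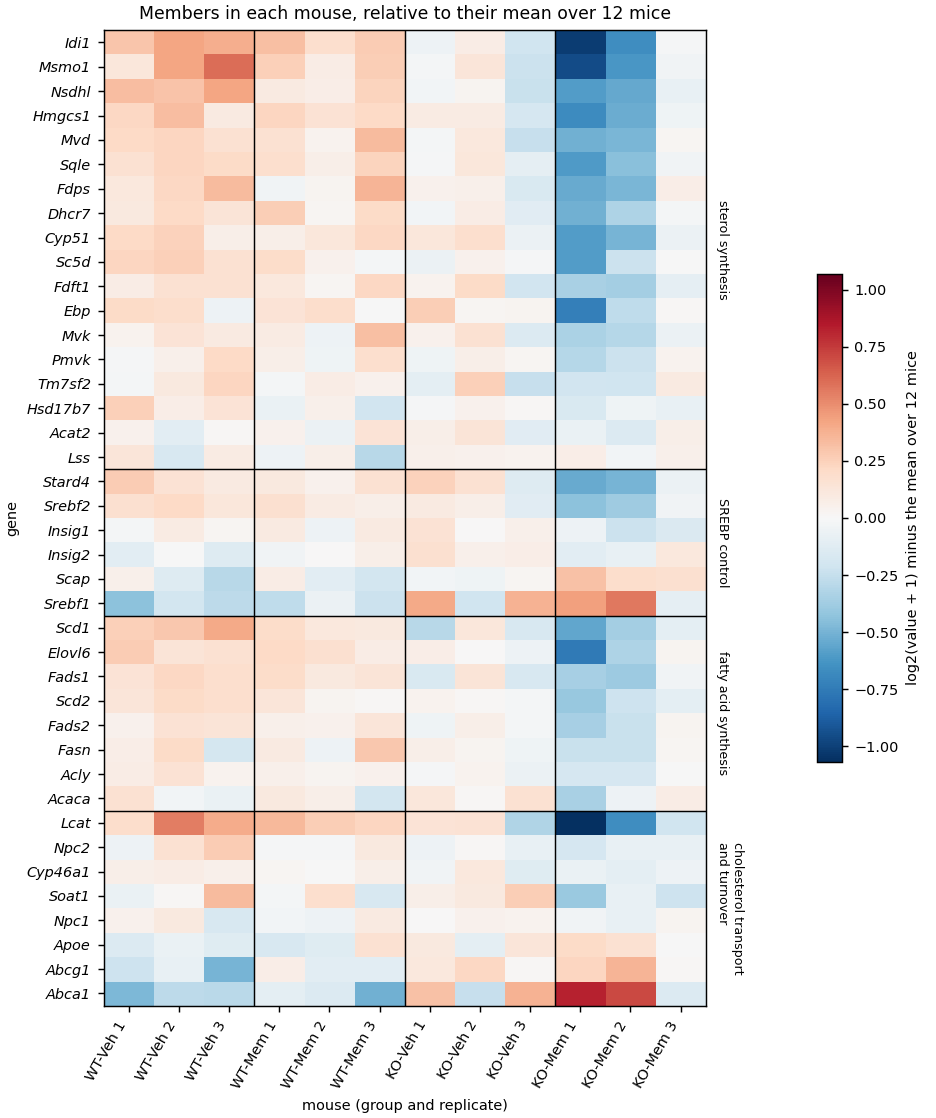
Heat map of the 40 genes (rows, by role) in the 12 mice (columns, by group and replicate), as log2(value + 1) minus each gene's mean over the 12 mice; red is above and blue below that mean. KO-Mem replicates 1 and 2 are blue across most sterol and fatty acid enzymes, whereas KO-Mem replicate 3 is near the mean, and Srebf1 and Abca1 are red in KO-Veh replicates 1 and 3 and KO-Mem replicates 1 and 2.

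The difference between genotypes was first taken as the mean of the KO minus WT differences under vehicle and under memantine, from limma on all 12 mice with 6 mice of each genotype. Sterol and fatty acid synthesis genes were lower in KO mice, whereas the cholesterol exporters and Srebf1 were higher. Of the 40 genes, 18 fell and 4 rose at an adjusted p-value under 0.05 (Benjamini-Hochberg over 17655 genes), compared with 5.73% of all tested genes that fell and 4.79% that rose. The genes that fell were 11 of the 18 sterol enzymes, Srebf2, 5 of the 8 fatty acid genes and Lcat. The median log2 difference over the 40 genes was -0.20, compared with 0.00 over all tested genes, and it was -0.30 over the sterol enzymes. In 5 genes (Idi1, Nsdhl, Hmgcs1, Elovl6 and Lcat) every KO mouse lay below every WT mouse, which was the case in 2.2% of all genes tested.

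Among the early enzymes, which lead from acetyl-CoA to squalene, the largest difference was in Idi1, the isopentenyl diphosphate isomerase (chromosome 13, 8885501 to 8892451). Its values were 1826, 1991 and 1944 in WT-Veh and 1856, 1681 and 1799 in WT-Mem, against 1431, 1568 and 1286 in mice of KO-Veh and 736, 937 and 1471 among KO-Mem mice. The groups of the 2 genotypes did not overlap, and KO-Mem replicates 1 and 2 were the lowest mice. Idi1 fell by 35.2% in KO mice, with a log2 difference of -0.63 ± 0.12 (SE) and an adjusted p-value of 0.0112. Hmgcs1 read 9581 to 11222 in the WT mice (median 10421) and 5610 to 9520 in the KO mice (median 8292). It fell by 25.1%, with a log2 difference of -0.42 ± 0.089 and an adjusted p-value of 0.0152. Hmgcs1 did not overlap between genotypes, and its lowest mice were again KO-Mem replicates 1 and 2. The mevalonate diphosphate decarboxylase Mvd ranged from 744 to 917 in the WT mice (median 828) and from 508 to 786 in the KO mice (median 663). It fell by 23.1%, while the farnesyl diphosphate synthase Fdps fell by 21.1% and the squalene synthase Fdft1 fell by 16.2%. The same test gave no call for Acat2, which condenses acetyl-CoA, or for the kinases Mvk and Pmvk, whose log2 differences were -0.02, -0.21 and -0.15.

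Among the late enzymes, which close and trim the sterol ring, Msmo1 and Nsdhl differed most. Msmo1, which oxidises the methyl groups on carbon 4 of the ring, had values of 1688, 2077 and 2343 across WT-Veh and 1849, 1643 and 1864 across WT-Mem, then 1529, 1701 and 1327 across KO-Veh and 801, 1010 and 1511 across KO-Mem. Only KO-Veh replicate 2 of the KO mice lay within the range of the WT mice. Msmo1 fell by 32.9% (log2 difference -0.58 ± 0.13, adjusted p-value 0.0169). Nsdhl, the X-linked dehydrogenase of the same step (chromosome X, 72918557 to 72958514), had values of 732, 722 and 780 in WT-Veh and 625, 611 and 690 in WT-Mem, against 573, 594 and 494 in mice of KO-Veh and 385, 400 and 551 among KO-Mem mice. The WT-Veh mean was the highest, that of WT-Mem the next and that of KO-Mem the lowest, with no overlap between genotypes. Nsdhl fell by 28.6% (log2 difference -0.49 ± 0.087, adjusted p-value 0.00896).

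The squalene epoxidase Sqle, a rate-limiting enzyme of the pathway, fell by 22.0% (adjusted p-value 0.0175), the lanosterol demethylase Cyp51 fell by 19.3% (0.0301), the desaturase Sc5d fell by 18.1% (0.0359) and the last enzyme Dhcr7 fell by 19.5% (0.0245). Sqle ranged from 2223 to 2510 in the WT mice (median 2432) and from 1401 to 2318 in the KO mice (median 2031), and Cyp51 from 2292 to 2612 (median 2468) and from 1451 to 2482 (median 2100). In Sqle only KO-Veh replicate 2 lay within the WT range, in Cyp51 KO-Veh replicates 1 and 2 did, and in both enzymes all KO-Mem mice lay below it. Dhcr7 ends 153.5 kb from the start of Shank2 on chromosome 7, and the part of DNA linked to the deleted allele in its difference was not tested. The lanosterol synthase Lss had a log2 difference of 0.08, the only positive value among the 18 sterol enzymes. Tm7sf2, Hsd17b7 and Ebp, which reduce or isomerise ring intermediates, had log2 differences of -0.14, -0.08 and -0.22 and were not called.

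**Figure D2:**
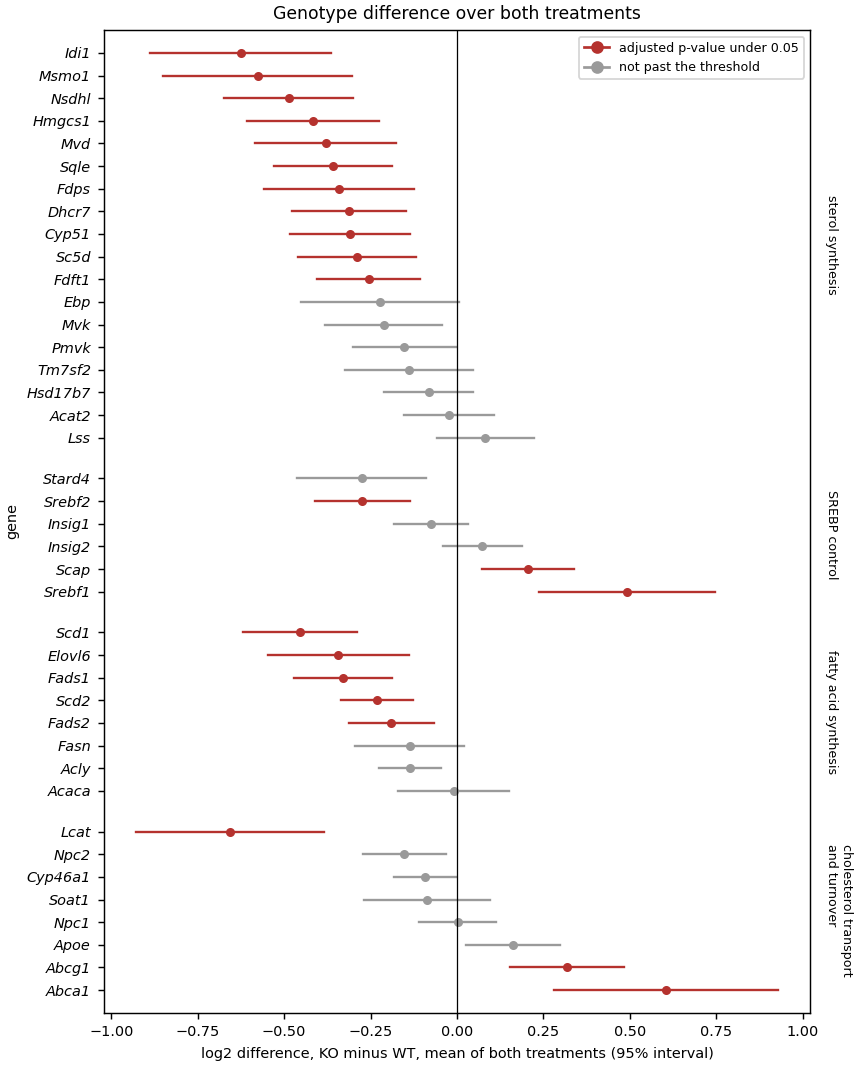
Log2 difference of KO minus WT mice, averaged over vehicle and memantine, for each of the 40 genes by role (points, with 95% intervals as bars; 6 mice of each genotype). Red marks an adjusted p-value under 0.05; 18 genes lie to the left of 0 in red, and Srebf1, Scap, Abca1 and Abcg1 lie to the right.

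The genes of the control system went in both directions. Srebf2, which encodes the activator of the sterol enzymes, had values of 7798 to 8638 in the WT mice (median 8270) and 5510 to 8000 in the KO mice (median 7067). It fell by 17.3% (log2 difference -0.27 ± 0.064, adjusted p-value 0.0212). Srebf1 rose by 40.7% (log2 difference 0.49 ± 0.12, adjusted p-value 0.0232). Its values were 1348, 1592 and 1499 across WT-Veh and 1510, 1741 and 1556 across WT-Mem, then 2413, 1574 and 2364 across KO-Veh and 2469, 2699 and 1705 across KO-Mem. In each KO group 2 mice lay far above the WT mice and the remaining mouse, KO-Veh replicate 2 or KO-Mem replicate 3, lay within the WT range. Scap, the SREBP escort, rose by 15.2% (adjusted p-value 0.049), and its higher values were in KO-Mem, at 4513 to 5002, with 3886 to 4072 in KO-Veh. Insig1 and Insig2, whose proteins hold the SREBP precursors back, had log2 differences of -0.07 and 0.07, and the cholesterol carrier Stard4 had -0.28 with an adjusted p-value of 0.057.

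In fatty acid synthesis, the desaturases and the elongase fell but the enzymes that supply and build palmitate were not called. Scd1 (chromosome 19, 44394455 to 44407879), which puts the double bond into stearate, had values of 5308, 5431 and 5892 in WT-Veh and 5107, 4808 and 4769 in WT-Mem, against 3628, 4829 and 3958 in mice of KO-Veh and 3026, 3464 and 4130 among KO-Mem mice. Only KO-Veh replicate 2 exceeded the lowest WT mice. Scd1 fell by 27.0% (log2 difference -0.45 ± 0.077, adjusted p-value 0.00826, the smallest of the 40). Its neighbour on the chromosome, Scd2, the main brain form, fell by 14.8% (adjusted p-value 0.0144), from 42064 to 48221 in the WT mice to 31606 to 42798 in the KO mice. Scd1 and Scd2 are close paralogs, as are Fads1 and Fads2, and how reads common to a pair were divided between its genes was not tested. The elongase Elovl6 fell by 21.2% (adjusted p-value 0.0363), and the polyunsaturated fatty acid desaturases Fads1 fell by 20.4% (0.0126) and Fads2 fell by 12.3% (0.0491). Elovl6 read 2491 to 2845 in the WT mice (median 2656) and 1402 to 2483 in the KO mice (median 2322), and Fads1 read 6241 to 6788 (median 6499) and 4432 to 6372 (median 5170). The genotypes did not overlap in Elovl6, and in Fads1 only KO-Veh replicate 2 reached the WT range. Acly, which makes cytosolic acetyl-CoA, had a log2 difference of -0.14 and just missed the threshold (adjusted p-value 0.0547). The fatty acid synthase Fasn and the acetyl-CoA carboxylase Acaca had log2 differences of -0.14 and -0.01.

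Among the genes of transport and turnover, Lcat, which esterifies cholesterol on lipoproteins, had the most negative difference of all 40 genes. Its values were 612, 786 and 707 across WT-Veh and 685, 644 and 631 across WT-Mem, then 595, 599 and 429 across KO-Veh and 256, 339 and 463 across KO-Mem. Every KO mouse lay below every WT mouse, and Lcat fell by 36.6% (log2 difference -0.66 ± 0.13, adjusted p-value 0.011). The exporter Abca1, which loads cholesterol onto Apoe particles, had the most positive difference. It read 1095, 1263 and 1251 in WT-Veh and 1422, 1378 and 1072 in WT-Mem, against 1902, 1286 and 1974 in mice of KO-Veh and 2697, 2497 and 1382 among KO-Mem mice. KO-Veh replicate 2 and KO-Mem replicate 3, the same mice as for Srebf1, lay within the WT range, and Abca1 rose by 52.0% (log2 difference 0.60 ± 0.15, adjusted p-value 0.0267). Abcg1, a second exporter, rose by 24.6% (log2 difference 0.32 ± 0.077, adjusted p-value 0.0234). Its values were 1524 to 2259 in the WT mice (median 1988) and 2164 to 2769 in the KO mice (median 2414), so the genotypes overlapped only at their edges. Apoe had a log2 difference of 0.16 (adjusted p-value 0.11). The lysosomal cholesterol exporters Npc1 and Npc2 had 0.00 and -0.15, Soat1 -0.09 and Cyp46a1, which removes cholesterol from neurons, -0.09, and none of these was called.

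**Figure D3:**
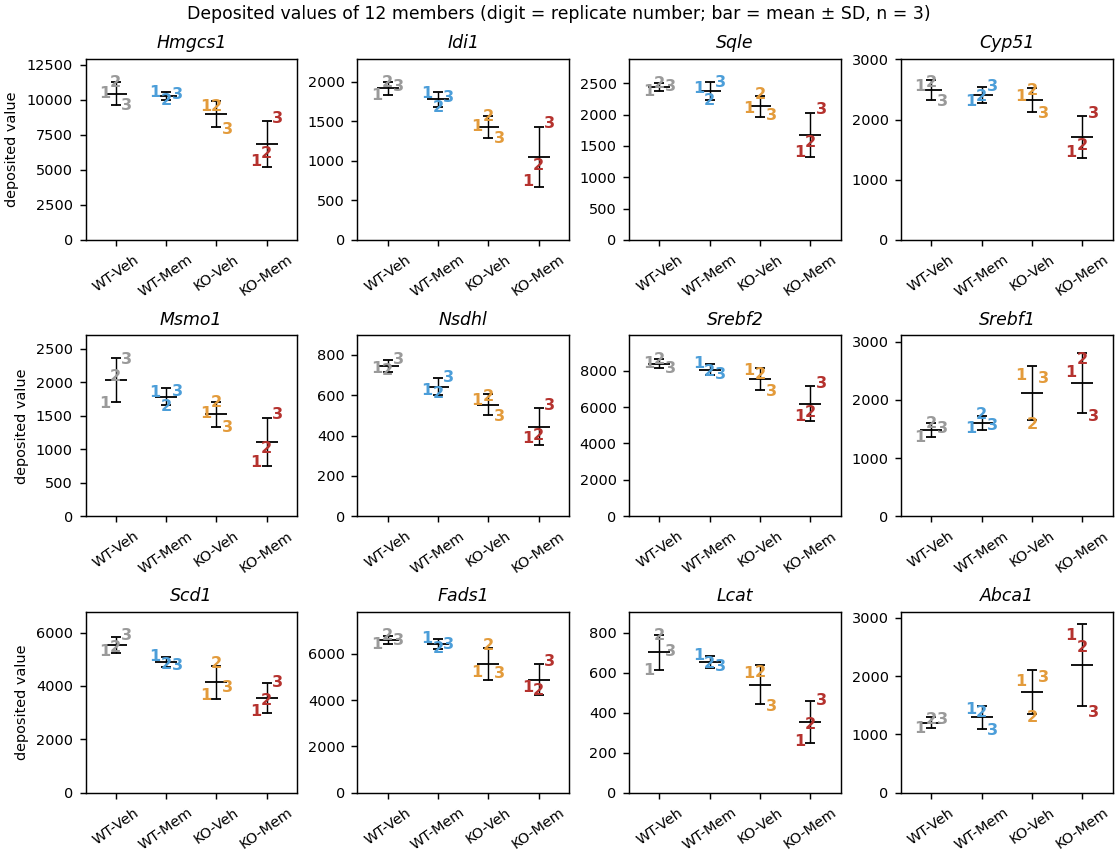
Deposited values of 12 of the genes in each mouse by group, on a linear axis from 0; each digit is the replicate number of a mouse and the black bar is the group mean ± SD of 3 mice. The digits 1 and 2 of KO-Mem lie below the digit 3 in the sterol enzymes and in Srebf2, and above it in Srebf1 and Abca1.

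These genotype calls depended on which mice were included. In KO-Mem, replicate 3 was the highest of the group in 16 of the 18 sterol enzymes and in 31 of the 40 genes, and KO-Mem replicate 1 was the lowest of all 12 mice in 13 sterol enzymes and in 24 of the 40 genes. Such ranks were not counted over all genes, so they do not set these genes apart from the rest. Idi1, Nsdhl, Scd1, Scd2, Fads1 and Lcat were called as lower under all 19 alternative settings. The count of 22 went down to 8 without KO-Veh replicate 3, the mouse with cerebellar RNA, where 528 of all tested genes were called in place of 1856. The 8 were Idi1, Nsdhl, Hmgcs1, Scd1, Scd2, Fads1 and Lcat as lower and Abcg1 as higher, and the number of genes lower without overlap of the genotypes was again 5 (2.5% of all genes). The count was 9 without KO-Mem replicate 1 (624 of all genes), 9 without KO-Mem replicate 2 (754), 11 without KO-Veh replicate 1 (901), 11 without WT-Veh replicate 2 (780) and 14 without WT-Mem replicate 1 (973). It went up to 27 without KO-Mem replicate 3, where 3263 of all genes were called. The calls among all genes thus went down and up with those among the 40.

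The baseline difference, Veh-K/W (KO-Veh against WT-Veh), was smaller. None of the 40 genes was called by limma (smallest adjusted p-value 0.134, for Idi1), where 0.0283% of all tested genes were called. At an unadjusted p-value under 0.05, 14 of the 40 genes were lower and 4 were higher, compared with 7.68% of all genes for lower and 6.73% for higher. Without KO-Veh replicate 3 these counts were 5 and 4, and again no gene of the 40 was called. Of all 17650 genes then tested, 1521 had such a p-value in either direction, and 860 of these (4.87% of all genes) were lower. In 16 genes the KO-Veh mice all lay below the WT-Veh mice, which was so for 10.7% of all genes, and without KO-Veh replicate 3 the number was again 16, against 14.1% of all genes. The median log2 difference was -0.11 over the 40 genes, -0.16 over the sterol enzymes and 0.00 over all genes, and without KO-Veh replicate 3 the median of the 40 was -0.06. The differences of Idi1, Nsdhl and Scd1 were each -0.43, with 95% intervals of -0.61 to -0.25, -0.64 to -0.22 and -0.65 to -0.21. Those of the higher genes were 0.49 for Srebf1, 0.49 for Abca1, 0.38 for Abcg1 and 0.18 for Insig2. Leaving out KO-Veh replicate 2 gave 3 calls, Srebf1 and Abca1 as higher and Scd1 as lower, while calls among all genes went from 5 to 53 (0.3%).

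The difference under treatment, Mem-K/W (KO-Mem against WT-Mem), uses the other 6 mice. Again none of the 40 genes was called by limma (smallest adjusted p-value 0.0884), with 0.068% of all genes called. At an unadjusted p-value under 0.05, 24 genes were lower and 4 were higher, compared with 10.8% of all genes for lower and 10.1% for higher, so the share that was higher was close to that of all genes. The KO-Mem mice all lay below the WT-Mem mice in 21 genes, compared with 13.5% of all genes. The median log2 difference was -0.28 over the 40 genes, -0.44 over the sterol enzymes and 0.00 over all genes. Lcat had the most negative value at -0.93 ± 0.18, followed by Idi1 at -0.82 ± 0.20, Msmo1 at -0.74 ± 0.19 and Hmgcs1 at -0.62 ± 0.13. Abca1 was at 0.71 ± 0.22, Srebf1 at 0.49 ± 0.15, Scap at 0.30 ± 0.081 and Abcg1 at 0.25 ± 0.098. The number of calls depended on KO-Mem replicate 3: 27 of the 40 genes were called without it, and none on leaving out any other mouse. Leaving out a mouse changes both the mean and the spread of its group, and their parts were not tested. The change was not limited to these genes, since 1911 of all genes (10.8%) were called without KO-Mem replicate 3 in place of 12. With the spread estimated from all 12 mice, 13 of the 40 and 3.6% of all genes were called.

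Side by side, 28 of the 40 genes were lower in KO mice under both vehicle and memantine, 6 were higher under both and 6 had opposite signs, in 2 comparisons that share no mice. Of all tested genes, 8757 of 17671 were lower in Veh-K/W and 8768 of 17646 in Mem-K/W, and signs shared by both comparisons were not counted over all genes. The 6 that were higher in both were Srebf1, Scap, Abca1, Abcg1, Apoe and Lss. The value was more negative under memantine in 33 of the 40 genes and in 15 of the 18 sterol enzymes.

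**Figure D4:**
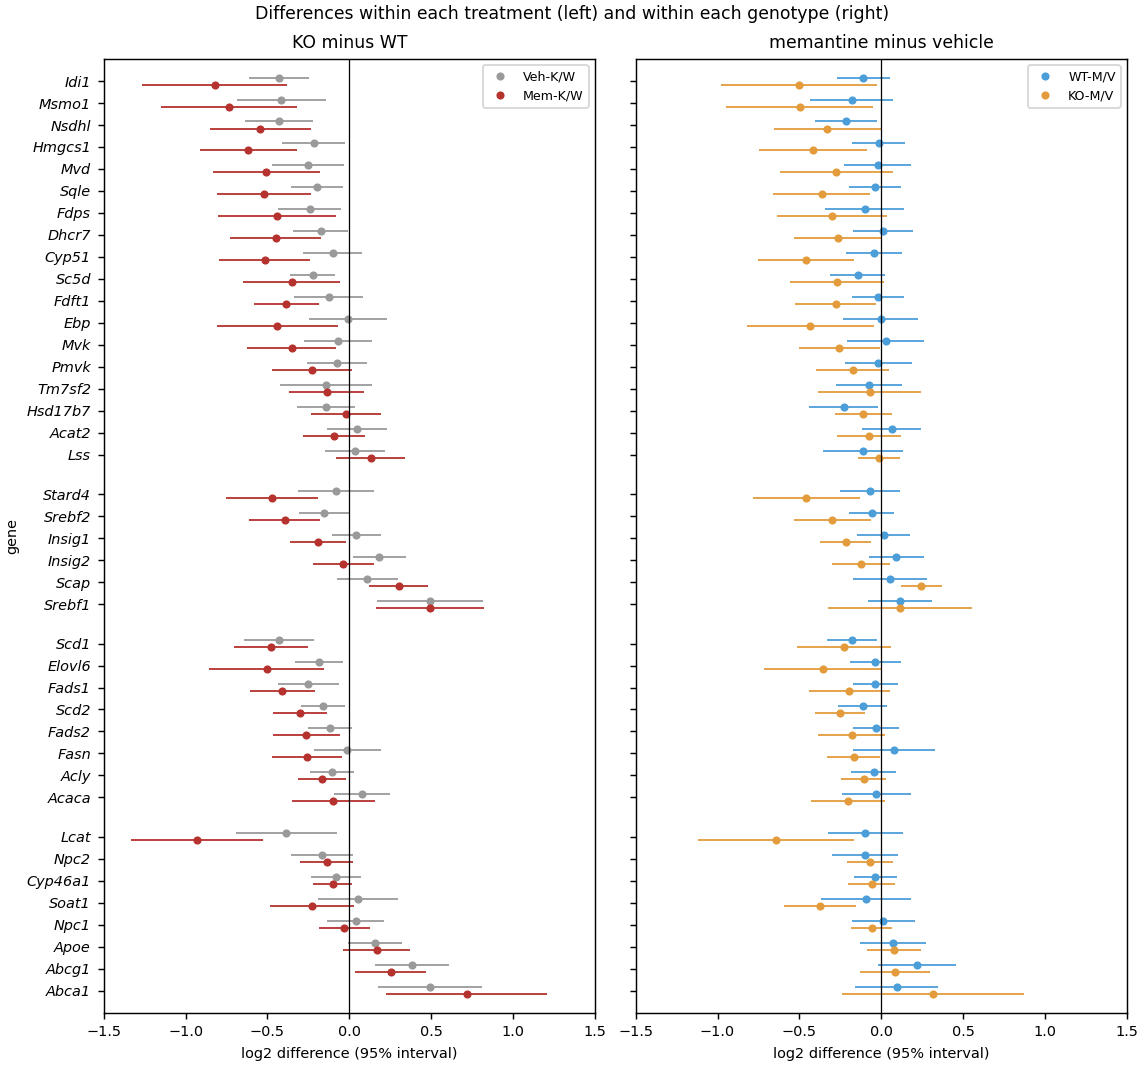
Log2 differences of the 40 genes with 95% intervals: KO minus WT under vehicle (Veh-K/W) and memantine (Mem-K/W) on the left, memantine minus vehicle in WT (WT-M/V) and KO mice (KO-M/V) on the right; each from 3 mice a group. Most Mem-K/W points lie to the left of the Veh-K/W points, and the WT-M/V points lie between -0.23 and 0.22.

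Whether memantine changed these genes within a genotype was asked next. In WT mice (WT-M/V, WT-Mem against WT-Veh), differences were small. No gene of the 40 was called by limma (0.0114% of all genes were), and 3 were lower at an unadjusted p-value under 0.05 (Scd1, Nsdhl and Hsd17b7, with log2 differences of -0.18, -0.22 and -0.23) against 2.47% of all genes. The median log2 difference was -0.04. The 95% interval of each of the 40 genes lay within a 1.5-fold change in either direction, and their median half-width was 0.19 on the log2 scale.

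In KO mice (KO-M/V, KO-Mem against KO-Veh), the differences were larger but so was the spread. No gene was called by limma, in this list or among all tested genes (0%, smallest adjusted p-value 0.554). At an unadjusted p-value under 0.05, 16 of the 40 genes were lower, compared with 4.54% of all genes, and Scap was higher, compared with 4.34%. Without KO-Veh replicate 3, 17 were lower (4.22% of all genes), Scap was higher and none was called. Of all 17703 genes then tested, 1511 had such a p-value in either direction, 747 of them lower. All 18 sterol enzymes and all 8 fatty acid genes had negative differences, compared with 8904 of 17707 genes tested. Their medians were -0.28 and -0.20, against 0.00 over all genes. The groups did not overlap in the lower direction in 5 genes (Scd2, Soat1, Hsd17b7, Ebp and Insig1), compared with 6.82% of all genes. They did not overlap in 18 genes without KO-Veh replicate 3, compared with 13.3%. The most negative values were -0.64 ± 0.21 for Lcat, -0.50 ± 0.21 for Idi1, -0.50 ± 0.20 for Msmo1, -0.46 ± 0.13 for Cyp51 and -0.46 ± 0.14 for Stard4. Scap, at 0.24 ± 0.056, had the smallest unadjusted p-value. Without KO-Mem replicate 3, 6 genes were called as lower (Cyp51, Sqle, Srebf2, Msmo1, Idi1 and Hmgcs1), when 97 of all genes (0.547%) were called in place of 0. Only 26 of the 40 intervals lay within a 1.5-fold change.

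Averaged over the genotypes, memantine gave no call among the 40 genes or among all genes by limma (0%), and 15 genes were lower and Scap was higher at an unadjusted p-value under 0.05, against 5.05% of all genes for lower and 3.63% for higher. Without KO-Veh replicate 3, 16 were lower (5.01% of all genes) and Scap was higher. Of all 17634 genes then tested, 1542 had such a p-value in either direction, 883 of them lower. The median log2 difference was -0.12, and Scd2 had the smallest adjusted p-value of the 40, 0.407, with a log2 difference of -0.18. Without KO-Mem replicate 3, 8 of the 40 and 120 of all genes (0.68%) were called.

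The test of whether the genotype difference itself differed between treatments (the interaction, Mem-K/W minus Veh-K/W on all 12 mice) gave no call by limma in the list or among all genes (0%, smallest adjusted p-value 0.947). The value was negative in 33 of the 40 genes, with a median of -0.17, compared with 9025 of 17655 genes and a median of -0.005 over all genes. These are the same 33 genes counted above as more negative under memantine, so the count adds nothing to that one. Of the 40, 4 genes had an unadjusted p-value under 0.05, all negative, compared with 2.34% of all genes: Cyp51 at -0.42 ± 0.16, Hmgcs1 at -0.40 ± 0.18, Stard4 at -0.39 ± 0.17 and Insig1 at -0.23 ± 0.099. These values did not pass the adjustment over all genes. Without KO-Veh replicate 3, 9 of the 40 genes were negative at an unadjusted p-value under 0.05 (2.59% of all genes), and none was called. The median half-width of the 95% intervals over the 40 genes was 0.33 on the log2 scale.

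The comparison KO-M/WT-V (KO-Mem against WT-Veh) asks how treated mutants stand against untreated WT mice. Its 6 mice also enter the comparisons above. By limma, 12 of the 40 genes fell and none rose, compared with 2.05% of all genes that fell and 1.32% that rose, and 5 genes were higher at an unadjusted p-value under 0.05, compared with 12.6% of all genes, which is close to the share of 5 in 40. The 12 were Idi1, Msmo1, Nsdhl, Hmgcs1, Cyp51, Sqle and Fdft1 among the sterol enzymes, Srebf2, the desaturases Scd1, Scd2 and Fads1, and Lcat. Lcat fell by 50.9% (log2 difference -1.03 ± 0.19, adjusted p-value 0.0311), Idi1 fell by 47.6% (-0.93 ± 0.20, 0.0403), Msmo1 fell by 47.0% (-0.92 ± 0.20, 0.042) and Nsdhl fell by 40.9% (-0.76 ± 0.13, 0.0305). Abca1 and Srebf1 had differences of 0.81 ± 0.21 and 0.61 ± 0.15, with adjusted p-values of 0.0577 and 0.0548. These calls were near the threshold: none remained without KO-Mem replicate 1 or 2 or without WT-Veh replicate 1, 2 or 3, 28 genes were called without KO-Mem replicate 3, and none was called when the prior variance did not depend on the mean. All genes moved alike: 595 were called in the comparison as fitted, 1 to 54 on leaving out any of the 5 mice that ended the calls, 7 with the other prior variance and 2490 (14.1%) without KO-Mem replicate 3.

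Other genes of the same pathways, from lists beyond the 40, were followed in the genotype difference over both treatments, in which 5.73% of all genes fell and 4.79% rose. Of 11 other sterol pathway genes, Cyb5a, the electron donor of the late enzymes, fell (log2 difference -0.22, adjusted p-value 0.0371) and its reductase Cyb5r3 rose (0.21, 0.0472). Of 9 other SREBP processing genes, the site-1 protease Mbtps1 rose (0.23, 0.0269), as did Nfyb, a subunit of NF-Y (0.37, 0.0108), and none fell. Of 20 other fatty acid genes 4 fell and none rose: the fatty acid hydroxylase Fa2h of myelin lipids (-0.39, 0.00971), the elongase Elovl5 (-0.32, 0.0107), the acetyl-CoA synthetase Acss2 (-0.25, 0.0369) and the reductase Tecr (-0.21, 0.0467). Of 21 other cholesterol transport genes 2 fell, the lysosomal acid lipase Lipa (-0.37, 0.0299) and the transporter Abca7 (-0.24, 0.0295). The medians of these 4 lists were -0.05, 0.09, -0.18 and -0.04. Without KO-Veh replicate 3, 1 SREBP processing gene rose, 2 fatty acid genes fell and no gene of the other 2 lists was called, when 2.99% of all genes were called in either direction.

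Markers of cell types were then compared between the same mice. Of 12 markers of myelinating oligodendrocytes, the cells with the highest demand for sterols at this age, 9 fell in the genotype difference and none rose, compared with 5.73% and 4.79% of all genes. The median log2 difference of these markers was -0.32, and 7 fell without KO-Veh replicate 3, when 2.99% of all genes were called in either direction. Their values summed to 371512 to 449473 across WT-Veh and 331198 to 387242 across WT-Mem, then 323683 to 343024 across KO-Veh and 264019 to 313305 across KO-Mem, and none was at 0 in any mouse. In KO-Mem the mean log2 deviation of these markers from their 12-mouse mean was -0.56, -0.36 and -0.15 in replicates 1 to 3, and that of the 18 sterol enzymes was -0.48, -0.36 and -0.01. In KO-Veh the markers were at -0.002, 0.044 and -0.05 and the sterol enzymes at 0.02, 0.10 and -0.12. In the WT mice the markers lay between -0.002 and 0.345 and the sterol enzymes between 0.06 and 0.19.

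Markers of other cell types were followed in the same way. In the genotype difference 3 of 6 oligodendrocyte precursor markers, 3 of 8 astrocyte markers, 4 of 6 endothelial markers and 1 of 6 microglial markers fell, and 1 of 8 neuron markers (Gad2) rose. Of all genes, 5.73% fell and 4.79% rose. When KO-Veh replicate 3 was left out (2.99% of all genes called in either direction), 2 precursor and 2 astrocyte markers fell, and no marker of these other lists was called. Astrocyte markers summed to 133426 to 135616 across WT-Veh and 124512 to 138094 across WT-Mem, then 125508 to 134681 across KO-Veh and 121673 to 128186 across KO-Mem. The precursor markers summed to 15838 to 16385, 15631 to 16124, 13750 to 14522 and 11282 to 13322 in the same order of groups, the endothelial markers to 6823 to 7202, 6172 to 6584, 5668 to 5923 and 5594 to 6286, the microglial markers to 7030 to 8377, 7087 to 7715, 6961 to 7224 and 5533 to 6753, and the neuron markers to 183471 to 209635, 204765 to 211489, 199247 to 207749 and 200121 to 202887. None of these markers was at 0 in any mouse. In KO-Mem replicates 1 to 3 the mean log2 deviation was -0.528, -0.377 and 0.05 for microglial markers and -0.251, -0.225 and -0.165 for precursor markers. It was -0.215, -0.166 and -0.096 for astrocyte markers, -0.198, -0.045 and -0.148 for endothelial markers and -0.01, -0.004 and -0.001 for neuron markers. The part of these cell types in the differences of the 40 genes was not tested, and in bulk tissue fewer cells of a type and less RNA per cell cannot be told apart.

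**Figure D5:**
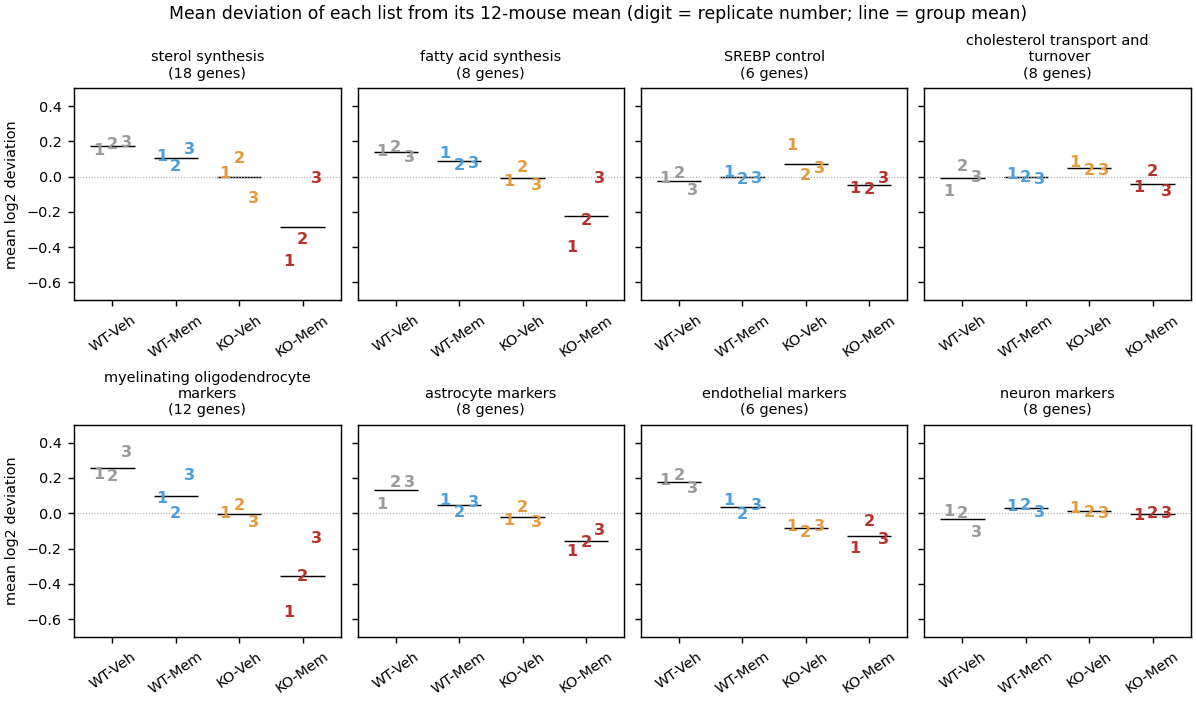
Mean log2 deviation of each list from its 12-mouse mean in each mouse, for the 4 roles of the 40 genes (top) and 4 cell type marker lists (bottom); each digit is the replicate number of a mouse and the line is the group mean. KO-Mem replicates 1 and 2 are the lowest for sterol enzymes and for myelinating oligodendrocyte markers, and neuron markers lie near 0 in all groups, with WT-Veh replicate 3 the lowest.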

How the data were processed

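The values used are signal values deposited by the authors: gene counts estimated with Salmon (version 1.1.0) by quasi-mapping to GRCm38 transcripts, corrected for GC bias, imported with tximport and scaled between the 12 mice by DESeq2. The submitters' processing notes give DESeq2 1.26.0 and R 3.6.2, and the study's methods give other versions of both. They are neither log transformed nor whole numbers, whole reads could not be recovered, and the annotation release and gene filter are not given in the sources used here. The count test foreseen for deposited counts was therefore not used. Symbols, positions and exon lengths came from GENCODE M21 (GRCm38), which matched 19295 of 19312 genes, and promoters from RefSeq (GRCm38.p6).

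Group and replicate of each mouse came from the sample labels. Differences were tested with limma 3.58.1 in R 4.3.3 (lmFit, then eBayes with a mean-dependent trend) on log2(value + 1), so a difference understates the change of low genes, for genes whose mean over the fitted mice was 10 or more. Benjamini-Hochberg adjustment covered all tested genes, and a gene is called at an adjusted p-value under 0.05; no p-value was adjusted over a list alone. The comparisons between pairs of groups (Veh-K/W and Mem-K/W between genotypes, WT-M/V and KO-M/V between treatments, and KO-M/WT-V) were each fitted on their 6 mice, and the differences averaged over treatments or genotypes and the interaction on all 12 with a mean per group; WT-Mem against KO-Veh was not analysed here. Percent changes are back-calculated from log2 differences, and ± is the moderated SE unless SD is stated. The procedure was tested on simulated data. Alternatives were pseudocounts of 0.5 and 5, no filter and a filter at 50, centring each mouse on its median, eBayes without trend, a replicate block, all 12 mice in a single fit, and leaving out each mouse. The genes described by name are those called in a comparison and the 5 of the rest with the smallest p-values. The 40 genes and all other lists were chosen with earlier results of these data known.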

Additional observations from a re-analysis of the deposited data

How the results depend on the processing

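The number of calls among the 40 genes depended on the settings. Of the recomputed counts of called genes 106 stayed within 1.5 times the reported count and 21 did not. The 106 include every count of 0 that stayed at 0, and only KO-M/WT-V and the genotype difference over both treatments had calls as fitted. In all, 125 medians moved by less than the spread between mice and 2 by more. No named result reversed under any setting. Counted once for each named gene, comparison and setting, 990 entries kept their status, 196 lost their call and 35 gained one. In the genotype difference, calls were lost in 14 of 19 settings for Fads2 and in 12 for Elovl6 and Fdps. None was lost for Idi1, Nsdhl, Scd1, Scd2, Fads1 or Lcat. With all 12 mice in a single fit, the calls were 13 in Mem-K/W and 24 in KO-M/WT-V. Calls among all genes rose as well, from 12 to 636 in Mem-K/W and from 595 to 2067 in KO-M/WT-V. With no filter on low values KO-M/WT-V gave 6 (1.89% of all genes), and with eBayes without trend it gave 0 (0.0396%). In the genotype difference over both treatments 6 genes then remained (3.79% of all genes, against 10.5% as fitted). On leaving out each mouse in turn, the calls ranged from 0 to 3 in Veh-K/W, from 0 to 27 in Mem-K/W, from 0 to 6 in KO-M/V, from 0 to 28 in KO-M/WT-V, from 8 to 27 in the genotype difference over both treatments and from 0 to 8 in the memantine difference over both genotypes. The share called over all genes ranged, in the same order, from 0.0113% to 0.3%, from 0.0113% to 10.8% and from 0% to 0.547%. For the last 3 it ranged from 0.00567% to 14.1%, from 2.99% to 18.5% and from 0% to 0.68%. The median log2 difference of the 40 genes ranged from -0.150 to -0.057 in Veh-K/W and from -0.269 to -0.111 in the interaction. WT-M/V and the interaction gave 0 calls among the 40 under every alternative, and at most 0.0171% and 0.0227% among all genes. The replicate numbers did not pair the mice, since the correlation of same-numbered deviations from the group means lay between -0.175 and 0.08. The fit with a replicate block gave 16 calls in KO-M/WT-V (5.66% of all genes), 22 in the genotype difference (9.79%) and 0 in each of the other comparisons. The cause of these changes was not tested. With 3 mice a group and an unknown number of reads, small differences could not be resolved.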
